A study of Mus musculus with 4 samples.

Results

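Stefin A genes encode small cytosolic inhibitors of cysteine proteases, and in mice they form a cluster of related copies on chromosome 16, some of them near-identical. The 5 genes described here are Stfa1, Stfa2, Stfa3, Stfa2l1 and BC100530, taken by gene symbol from the 20611 genes of each table. All 5 were present in every library and passed the filter on low counts. They came with a division into keratinocyte members (Stfa1, Stfa2 and Stfa3) and neutrophil members (Stfa2l1 and BC100530), which is set against marker genes below.

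RNA from the dorsal skin of BALB/c males, 8 to 9 weeks old, was measured by single-end sequencing of 50 cycles. Every animal, controls included, was treated with imiquimod (IMQ) on days 1 to 5, as 47 mg of a 5% cream each day, and skin was taken on day 6. Imiquimod activates Toll-like receptors and gives a psoriasis-like inflammation of mouse skin. The IMQ group (1 library) had the cream alone, and the IMQ+VEH group (2 libraries) also had a lotion without active compound about 1 h after the cream. The IMQ+IDMF group (1 library) had lotion with IDMF, which is isosorbide di-(methyl fumarate) and acts as a dimethyl fumarate pro-drug. No library of skin without imiquimod was analysed here, so none of the values below measures the response to imiquimod itself. The series text calls the 4 libraries independent biological replicates. By the core's numbering of samples, IMQ+VEH replicate 2 stands away from the rest, and whether it was another batch is not stated. Only the IMQ+VEH pair gives a spread within a group. The fit pools that spread with the trend over all genes (1 residual and 11.2 prior degrees of freedom), so a p-value measures a difference against this pooled spread of the pair.

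Stefins belong to the cystatin superfamily. They bind reversibly in the active site cleft of papain-like cysteine proteases such as cathepsins B, H, L and S, and block access of the substrate. In stratified epithelium the human counterpart, cystatin A (CSTA), is abundant in the upper keratinocyte layers and is cross-linked into the cornified envelope, and its loss causes a peeling skin disorder. Mouse stefin A genes are known from both epidermis and myeloid cells, neutrophils among them.

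The members occupy a stretch of chromosome 16 together with 5 other stefin A genes that the tables list. In GENCODE M21 (build GRCm38), Stfa2l1 lies at chr16:36156811-36161953 and Stfa1 at chr16:36276951-36285373, both on the plus strand. BC100530 (Cstdc5 in RefSeq) at chr16:36359382-36367748, Stfa2 at chr16:36403992-36408457 and Stfa3 at chr16:36450537-36455392 are on the minus strand. Each has 3 exons, and the coding sequence is spread over all 3. The coding sequences are 309 bases long in Stfa2, Stfa2l1 and Stfa3 and 291 bases long in Stfa1 and BC100530.

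By sequence the members form close pairs that cut across the keratinocyte and neutrophil labels. Over the coding sequence, Stfa1 and BC100530 were 97.9% identical, with 6 differences, and Stfa2 and Stfa2l1 were 96.4% identical, with 11 differences. The other 8 pairs of members were 73.1% to 81.6% identical. The first 90 coding bases are shown to make these pairs visible, from GENCODE M21 transcripts of GRCm38 (reference strain C57BL/6J, not the BALB/c strain of these mice), with capitals at each base that differs from the first sequence of the block. The first block has the 309-base genes, with Stfa2 on top.
Stfa2: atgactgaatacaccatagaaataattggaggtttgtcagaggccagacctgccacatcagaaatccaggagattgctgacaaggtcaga
Stfa2l1: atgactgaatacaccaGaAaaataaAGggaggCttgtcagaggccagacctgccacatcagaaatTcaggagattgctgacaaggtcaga
Stfa3: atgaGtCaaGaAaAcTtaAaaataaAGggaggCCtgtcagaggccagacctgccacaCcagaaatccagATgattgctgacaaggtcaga
In this stretch Stfa2l1 differs from Stfa2 at 6 bases and Stfa3 at 14. The second block has genes of 291 coding bases, with BC100530 on top, and adds Gm5416 (Csta3 in RefSeq), a neighbour in the cluster that is described further on.
BC100530: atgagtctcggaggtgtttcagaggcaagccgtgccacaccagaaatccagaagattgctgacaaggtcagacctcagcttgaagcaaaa
Stfa1: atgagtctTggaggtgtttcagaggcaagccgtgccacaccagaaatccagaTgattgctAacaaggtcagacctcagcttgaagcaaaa
Gm5416: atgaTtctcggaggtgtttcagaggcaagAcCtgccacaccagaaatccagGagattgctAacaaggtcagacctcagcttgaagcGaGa
Here Stfa1 differs from BC100530 at 3 bases and Gm5416 at 7.

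Such likeness bears on how reads of 50 bases can be assigned. Of all 50-base windows in the transcript, 48.9% in BC100530, 26.9% in Stfa1, 24.6% in Stfa2l1 and 15.9% in Stfa2 also occurred without a mismatch in a transcript of another gene. With up to 2 mismatches allowed against the other genes of the cluster, the shares were 85.1%, 84.5%, 65.9% and 57.8%. Stfa3 stands apart, with no window shared exactly and 5.79% shared within 2 mismatches. For reads that match several genes, the treatment in the authors' counting is not stated in these sources. Values of Stfa1 and BC100530, and of Stfa2 and Stfa2l1, are therefore uncertain as to the split between partners, and sums over partners are given beside them. A sum does not recover reads that the counting left out or gave to other genes.

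**Figure D1:**
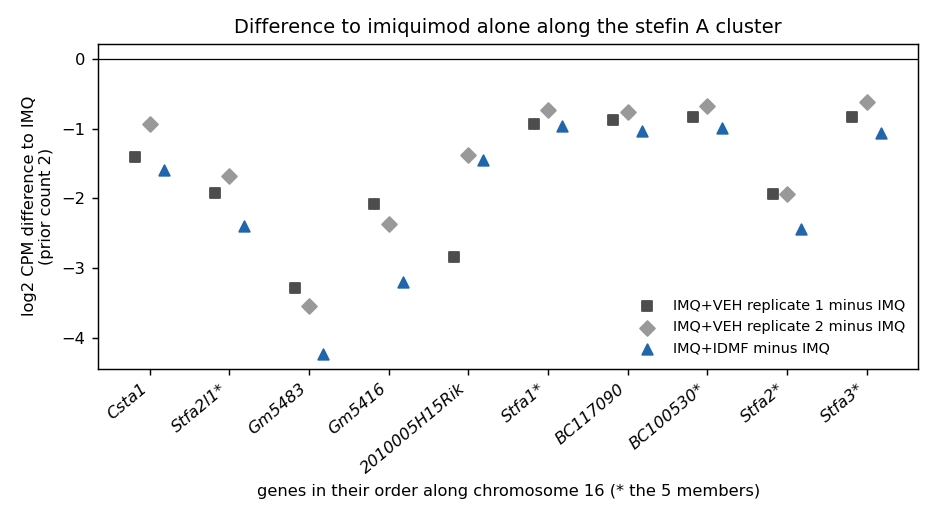
Genes of the stefin A cluster in their order along chromosome 16 (horizontal axis, position in the order, not distance), with the log2 CPM difference from the IMQ library on the vertical axis for each of the other 3 libraries (asterisks mark the members). Stfa2 and Stfa2l1, which lie apart in the cluster, are between -1.68 and -2.44, and Stfa1, Stfa3 and BC100530 are between -0.62 and -1.07.

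Total counts per library ran from 21167149 to 26639628, and 3 counts corresponded to between 0.107 and 0.146 CPM (counts scaled to a common library size, by the TMM method). The members are far above this floor in all libraries except that Stfa2l1, the least abundant, had 93 to 564 counts. Over the 15068 genes tested, the root mean square log2 distance was 0.639 between the IMQ+VEH libraries, 0.564 and 0.589 between each of them and IMQ+IDMF, and 0.679 to 0.755 between IMQ and the others. The library with IDMF was thus no farther from either IMQ+VEH library than these were from each other.

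Per length, BC100530 and Stfa3 were among the most abundant transcripts of the skin. In the authors' FPKM (fragments per kilobase of transcript, scaled to depth), BC100530 reached 18497 in IMQ, 11579 and 11863 in IMQ+VEH and 9707 in IMQ+IDMF, the highest level of any gene in each library. Stfa3 followed at 15422, 9672, 10339 and 7691, and ranked 2nd or 3rd of all genes. Stfa1, at 3565, 2073, 2210 and 1912 FPKM, ranked between 20th and 44th. Stfa2 had 932, 273, 250 and 180 FPKM, and Stfa2l1 was the lowest with 72.6, 21.2, 23.4 and 14.2. The order BC100530, Stfa3, Stfa1, Stfa2, Stfa2l1 was the same in every library. Each step in the order was larger than the spread of the IMQ+VEH pair. This includes the smallest step by ratio, from BC100530 at 11721 ± 201 FPKM to Stfa3 at 10005 ± 471 (mean and SD, n = 2). The spread does not cover how shared reads were split. Of the summed FPKM of the 5 members, BC100530 and Stfa3 together made up most, with 48.1% to 49.8% and 39.4% to 41.9%. Counts and FPKM together imply a length of 325.6 to 335.9 bases for BC100530 and 288.5 to 297.7 for Stfa3. Their GENCODE transcripts have 619 and 412 bases. Which of these genes is higher per length therefore depends on the length taken, and the authors' length is not stated. FPKM per count was first divided by its median over 10981 genes in each library. It was then constant across libraries to within 1.34% for every member. FPKM and counts of the members thus differ mainly by a scale per library, which is not the TMM scale. For Stfa1 in IMQ+VEH against IMQ, limma on log2(FPKM + 1) gave a log2 fold change of -0.74 and edgeR -0.83. Whether FPKM and counts assign shared reads alike was not tested.

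Together the 5 genes took 1.21% of all counts in the IMQ library (95% exact binomial interval 1.205% to 1.214%). The share was 0.726% and 0.758% in the IMQ+VEH libraries and 0.619% in IMQ+IDMF (0.6157% to 0.6223%). With the 5 other listed genes of the cluster the shares were 1.51%, 0.883%, 0.925% and 0.753%. These intervals cover counting error only. In whole skin, fewer cells that make a transcript and less transcript per cell cannot be told apart, and this holds for every value here.

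**Figure D2:**
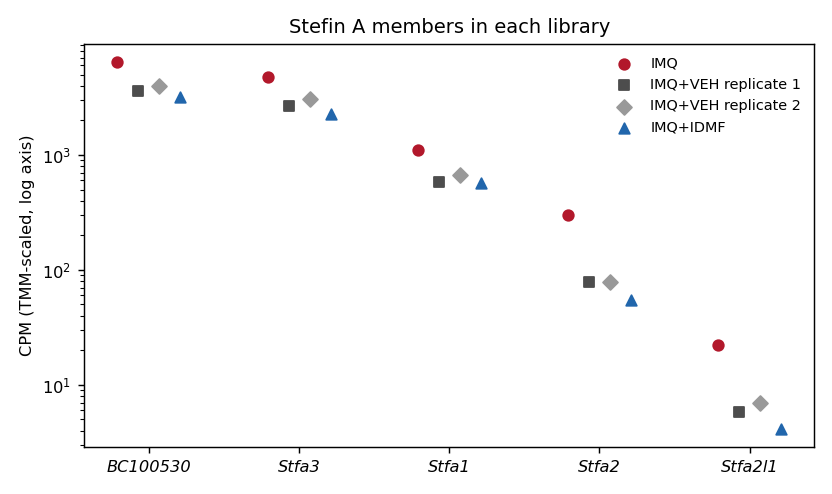
CPM of each of the 5 members (horizontal axis, in the order of their levels) in the 4 libraries, with 1 point per library on a logarithmic vertical axis. In every gene the IMQ library is highest, the 2 IMQ+VEH libraries lie between, and the IMQ+IDMF library is lowest.

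Setting IMQ+VEH against IMQ asks how a lotion free of the drug alters skin under imiquimod. Stfa2 fell, from a level in IMQ that was 3.82 times the IMQ+VEH mean. Stfa2l1 was lower by a like amount without passing the adjusted threshold (3.5 times), and Stfa1, Stfa3 and BC100530 were lower by a smaller amount that did not pass. All 5 members were below the IMQ library in both IMQ+VEH libraries, as were 35% of all genes tested. The sizes differed among the members.

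Stfa2 was at 298 CPM in IMQ against 77.9 and 77.8 CPM in IMQ+VEH, a mean of 77.9 ± 0.00737 (SD, n = 2). The IMQ library lay far above a pair that was almost identical at this scaling. In FPKM the pair differed more, at 273 and 250 (mean 262 ± 15.7, SD, n = 2), against 932 in IMQ. The fitted log2 fold change was -1.94 (SE 0.26; edgeR quasi-likelihood test, adjusted p = 0.00442), and Stfa2 was the 1 of 5 members called, against 0.325% of all genes called lower and 0.664% called in either direction. With limma on log2(FPKM + 1) the adjusted p of Stfa2 was 0.0604, and over all alternatives it ran from 1.74e-08 to 0.809.

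Its close copy Stfa2l1 was at 22.2 CPM in IMQ and at 5.81 and 6.88 CPM in IMQ+VEH (mean 6.34 ± 0.754, SD, n = 2). The groups did not overlap, and the log2 fold change was -1.81 (SE 0.38; edgeR unadjusted p = 0.000467, adjusted p = 0.0645). DESeq2 gave an adjusted p of 0.0355 for Stfa2l1 (0.000788 to 0.809 over all alternatives) and also called Stfa2. At an unadjusted p under 0.05, Stfa2 and Stfa2l1 passed in edgeR, against 2.55% of all genes lower and 8.81% in either direction. Summed, to set aside the split of reads between them, Stfa2 and Stfa2l1 were at 320 CPM in IMQ, 83.7 and 84.7 in IMQ+VEH and 59.0 in IMQ+IDMF. The sum was lower in the IMQ+VEH mean than in IMQ by -1.93 on the log2 scale, and it is carried almost wholly by Stfa2.

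Stfa1 was at 1114 CPM in IMQ against 581 and 672 CPM (mean 627 ± 63.9, SD, n = 2). Stfa3 was at 4725 CPM against 2650 and 3080 (mean 2865 ± 304). BC100530 was at 6393 CPM against 3583 and 3988 (mean 3786 ± 287). Each IMQ value was higher than both IMQ+VEH values, by 1.65 to 1.78 times their mean. The log2 fold changes were -0.83 for Stfa1 (SE 0.40, edgeR adjusted p = 0.606), -0.72 for Stfa3 (SE 0.61, adjusted p = 0.896) and -0.76 for BC100530 (SE 0.66, adjusted p = 0.902). These standard errors are much wider than the difference within the pair, which was 0.15 to 0.22 on the log2 scale for the 3 genes. The fit borrows its spread from genes of like abundance, and at 1 residual degree of freedom this weighs more than the pair. DESeq2 gave an unadjusted p under 0.05, in the lower direction, for 5 of 5 members and for 1.53% of all genes.

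The members formed 2 sets by the size of their difference, Stfa2 with Stfa2l1 and Stfa1 with Stfa3 and BC100530, and these sets cross the labels. Each near-identical pair lies within 1 set, while Stfa3 is closer in coding sequence to Stfa2l1 (81.6%) and Stfa2 (80.9%) than to BC100530 (79.3%). Per 100 reads of BC100530 there were 17.4, 16.2, 16.8 and 17.8 reads of Stfa1 in IMQ, both IMQ+VEH libraries and IMQ+IDMF, and 73.9, 74.0, 77.2 and 70.2 reads of Stfa3. These ratios were nearly flat, within 1.1 times from lowest to highest. Per 100 reads of Stfa2 there were 7.46, 7.46, 8.83 and 7.58 reads of Stfa2l1, again flat. In contrast, Stfa2 per 100 reads of BC100530 went from 4.66 in IMQ to 2.17, 1.95 and 1.71, a range of 2.73 times.

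As a measure of likeness, the root mean square difference of centred log2 CPM over the 4 libraries was 0.103 between Stfa2 and Stfa2l1. It was 0.0485 to 0.0887 among Stfa1, Stfa3 and BC100530, and 0.512 to 0.561 for every pair across these sets. Stfa2 thus differed in pattern from Stfa1 and Stfa3, with which it shares the keratinocyte label, and Stfa2l1 differed from BC100530, with which it shares the neutrophil label. Stfa3, in which hardly any window is shared, had almost the pattern of BC100530. The count ratios and these distances come from the same 4 libraries that gave the sets, so they are not separate evidence for them. How far shared reads bear on the likeness within the near-identical pairs was not tested.

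**Figure D3:**
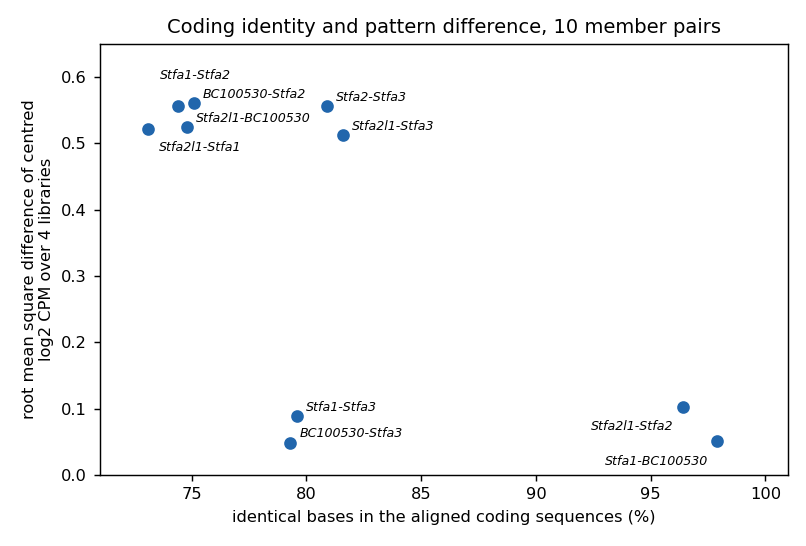
Coding sequence identity (horizontal axis, percent) against the root mean square difference of centred log2 CPM over the 4 libraries (vertical axis) for each pair of members. Stfa2-Stfa2l1 and Stfa1-BC100530 lie at high identity and small difference, and the pairs under 82% identity hold both small differences (Stfa3 with Stfa1 or BC100530) and differences above 0.5.

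Setting IMQ+IDMF against IMQ+VEH asks what the drug adds to the lotion. All 5 members were lower in the IMQ+IDMF library than in either IMQ+VEH library, against 27.5% of all genes, and none passed the test. Stfa2l1 was at 4.16 CPM with IDMF, which is -0.47 and -0.71 on the log2 scale from the IMQ+VEH libraries (edgeR log2 fold change -0.61, SE 0.42, adjusted p = 1). Stfa2 was at 54.9 CPM, -0.50 from both libraries (edgeR log2 fold change -0.50, SE 0.28, adjusted p = 1). These members, lowest in abundance, had the largest differences of the 5.

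The abundant members differed less. Stfa3 was at 2251 CPM with IDMF (fitted log2 fold change -0.35, SE 0.63), BC100530 at 3206 CPM (-0.24, SE 0.69) and Stfa1 at 571 CPM (-0.13, SE 0.42). For Stfa1 the IDMF library was only -0.03 from IMQ+VEH replicate 1, less than the 0.21 between the replicates. The edgeR adjusted p was 1 for each of these as well. The count of members called was 0 of 5, where 0% of all genes were called, and at an unadjusted p under 0.05 it was 0 of 5 against 2.03% of all genes (1.55% lower). DESeq2 also called 0 of 5, adjusted or not, and limma on log2 FPKM gave Stfa2l1 an unadjusted p of 0.0208. The median over the members was -0.35, beside -0.01 over all genes tested. A p above the threshold does not show that the groups are alike, and the SEs of Stfa1, Stfa3 and BC100530, 0.42 to 0.69, are wider than the differences measured.

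All 5 members had the order IMQ, then both IMQ+VEH libraries, then IMQ+IDMF, which 9.34% of all genes tested shared. Between the single IMQ+IDMF and IMQ libraries there is no replicate, so only sizes can be given. The log2 CPM difference was -2.44 for Stfa2, -2.40 for Stfa2l1, -1.07 for Stfa3, -0.996 for BC100530 and -0.96 for Stfa1. Stfa2, Stfa2l1 and Stfa3 were more than 2-fold lower with IDMF, as were 4.51% of all genes. The IMQ and IMQ+VEH values enter this description and the comparisons above, so these are not separate evidence. For Stfa2 most of the distance to IMQ was already present with the lotion alone.

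The promoters, like the coding sequences, are related copies, and the same pairs are closest. RefSeq promoter entries (GRCm38.p6, from 250 bases before to 50 after the gene's start) matched all 5 members, BC100530 through its RefSeq name. The RefSeq start is the GENCODE start for Stfa2l1 and Stfa3. For Stfa1, BC100530 and Stfa2 it lies inside the GENCODE gene, so more of their windows overlaps that gene. Stfa2 and Stfa2l1 were 90.5% identical over these windows, Stfa1 and BC100530 83.8%, and the other pairs 71.6% to 80.9%. The last 80 bases before the start are shown for Stfa2l1, with the larger difference, and Stfa3, with the smaller one, because they share a TATA-like run, TTTAAAA, which is in capitals. Stfa2l1 is at chr16:36156731-36156810 (plus strand) and Stfa3 at chr16:36455393-36455472 (minus strand), each written 5′ to 3′ on the gene's strand.
Stfa2l1: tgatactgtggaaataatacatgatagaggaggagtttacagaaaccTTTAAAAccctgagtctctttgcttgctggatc
Stfa3: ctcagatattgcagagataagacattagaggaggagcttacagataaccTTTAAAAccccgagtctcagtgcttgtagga
TTTAAAA was searched on both strands and at any position of the window, after the sequences had been seen. It was in 5 of 5 member promoters and in 8.74% of 32851 RefSeq promoters of the same length. It thus does not separate the members by size of difference. Counted from the RefSeq start, it began at -33 in Stfa2l1, -31 in Stfa3, -30 in Stfa1, -29 in Stfa2 and -9 in BC100530. The C/EBP letters TTNNGNAA were in 4 of 5, all but Stfa3, and in 40.7% of all. The AP-1 letters TGANTCA were in 1 of 5, Stfa3, and in 7.81% of all. Copies of one ancestral sequence are not independent, and a match is a description and not a binding site.

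Other genes of the skin had the patterns of the members to different degrees. Among 12363 genes, by the root mean square difference of centred log2 CPM over the 4 libraries, the nearest to BC100530 were Map3k9 (0.0083), Hephl1 (0.018) and Hpgds (0.039). The nearest to Stfa3 were the same 3 genes, with Hpgds first (0.027), and the nearest to Stfa1 were Atp13a5 (0.038), Hs3st3b1 (0.041) and Pld1 (0.047). Between 363 and 522 genes lay within 0.2 of each of these members, so their pattern is a common one in these libraries. Only 2 genes lay within 0.2 of Stfa2, namely Pglyrp4 (0.163) and Sprr2a3 (0.186), with Akr1c18 next (0.207). For Stfa2l1 the 2 were Pglyrp4 (0.139) and Lce3f (0.195), with Sprr2a3 next (0.234). With 4 libraries, likeness of this kind describes these samples only.

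Of the 13 symbols fixed for other genes of the cluster, 5 were listed in the tables and all 5 were tested. In IMQ+VEH against IMQ, Gm5416 was the 1 of 5 that fell. It had 2723 counts in IMQ, 709 and 424 in IMQ+VEH and 259 in IMQ+IDMF, with a log2 fold change of -2.22 (SE 0.27, edgeR adjusted p = 0.00268). Gm5416 is 89.0% identical to BC100530 in coding sequence and shares no 50-base window exactly, yet its pattern differed from that of BC100530 by 0.816. Per 100 reads of BC100530 its reads went from 1.68 in IMQ to 0.361 in IMQ+IDMF. Between IMQ+IDMF and IMQ+VEH, Gm5416 had a log2 fold change of -0.99 (SE 0.30, edgeR unadjusted p = 0.00616, adjusted p = 1).

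BC117090 (Cstdc6 in RefSeq), which is 95.2% identical to BC100530, stayed at 28.7 to 30.5 reads per 100 reads of it. Its log2 fold change in IMQ+VEH against IMQ was -0.82 (edgeR adjusted p = 0.71). Stfa1, BC100530 and BC117090 summed to 9458 CPM in IMQ, 5225 and 5805 in IMQ+VEH and 4725 in IMQ+IDMF. The sum was thus lower as well, however the counted reads were split among them. Csta1, the gene at the start of the cluster, had 27335, 11327, 11559 and 7998 counts (log2 fold change in IMQ+VEH -1.15, edgeR adjusted p = 0.342). Gm5483 had 80, 7, 4 and 2 counts (adjusted p = 0.118), and 2010005H15Rik had 13, 0, 3 and 3. Both IMQ+VEH libraries were under IMQ for all 5 of these, against 35% of all genes, and 3 were lower at an unadjusted p under 0.05, against 2.55%.

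None of the inhibitors of the superfamily outside the cluster was called. Stefin B (Cstb), the other cytosolic stefin, had 9517 counts in IMQ, 8147 and 8897 in IMQ+VEH and 7542 in IMQ+IDMF, with log2 fold changes of -0.05 and -0.10 in the respective comparisons. Cystatin C (Cst3), a secreted inhibitor, had -0.00 and -0.27. Cst6, which encodes cystatin E/M, an epidermal inhibitor of legumain and cathepsins, was higher in both IMQ+VEH libraries (0.87, edgeR adjusted p = 0.706). Of 12 fixed, 10 were listed and 3 tested, and edgeR called 0 of the 3 in either comparison, also at an unadjusted p under 0.05. The difference between these genes and the members was not tested.

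Stefins act on papain-like cathepsins, and all 10 fixed for this purpose were tested. In IMQ+VEH against IMQ their median log2 fold change was 0.27, the opposite sign to the members, and 1 of 10 rose, where 0.338% of all genes did. That gene was Ctsk, a collagen-degrading cathepsin of fibroblasts and osteoclasts, with 857 counts in IMQ and 2951 and 3329 in IMQ+VEH (log2 fold change 1.99, edgeR adjusted p = 0.0189). The fibroblast marker list moved with Ctsk: its summed CPM was 1659 in IMQ, 6244 and 3282 in IMQ+VEH and 2153 in IMQ+IDMF, and the part of this in the Ctsk value was not tested. The enzymes best known as stefin A targets, Ctsb, Ctsh and Ctsl, had log2 fold changes of 0.34, -0.30 and -0.05, none called.

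In IMQ+IDMF against IMQ+VEH, 8 of the 10 cathepsins were below both IMQ+VEH libraries, as were 27.5% of all genes, with a median of -0.32 beside -0.01 over all genes. Called by edgeR were 0 of 10, and 1 had an unadjusted p under 0.05. This was Ctss, the cathepsin of antigen-presenting cells, with 2270 and 1198 counts in IMQ+VEH and 764 with IDMF (log2 fold change -1.03, edgeR unadjusted p = 0.00479, adjusted p = 1). Summed CPM of the monocyte and macrophage markers ran alongside, at 1283 and 792 in IMQ+VEH and 572 with IDMF, and its part in the Ctss value was not tested. Of the other cathepsins and legumain, 4 of 5 were tested, and edgeR called 0 in either comparison, also at an unadjusted p under 0.05.

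Neutrophil markers were far lower in level than BC100530, which came with the neutrophil label. Of 27 neutrophil markers 25 were listed and 17 passed the filter; Ly6g and Acod1 were not analysed here. Among the defining markers, Retnlg, a neutrophil resistin-like protein, had 3, 1, 3 and 0 counts, and Ngp, a granule protein, had 0, 0, 5 and 0. Mmp8, neutrophil collagenase, had 11, 7, 5 and 15 counts. Csf3r, the G-CSF receptor, had 157, 229, 91 and 93 counts, and Cxcr2, a chemokine receptor that keratinocytes also express, had 1584, 1294, 1324 and 1307.

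Summed over the 25 markers, the neutrophil list reached 190 CPM in IMQ, 202 and 177 in IMQ+VEH and 144 in IMQ+IDMF. BC100530 alone was at 3206 to 6393 CPM in the same libraries. The median log2 fold change of the list in IMQ+VEH against IMQ was -0.05, with 7 of 17 genes below IMQ in both libraries, where 35% of all genes were. Called by edgeR were 0 of 17. The unadjusted p was under 0.05 for Trem1, a myeloid receptor with 28, 2, 2 and 3 counts, and for Mpo, myeloperoxidase of neutrophil precursors, with 7, 35, 87 and 29, both named after their values were seen. In IMQ+IDMF against IMQ+VEH the list had a median log2 fold change of -0.60, beside -0.35 over the members. There 7 of 17 were below both IMQ+VEH libraries, against 27.5% of all genes. In that comparison edgeR called 0, and 1 was lower at an unadjusted p under 0.05, against 1.55% of all genes. Stfa2l1 was at 4.16 to 22.2 CPM. Levels of different genes do not settle which cells make a transcript, and the cell source of BC100530 and of Stfa2l1 was not tested. Both genes are called by name here.

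Keratinocyte markers were abundant in every library and moved in part with the members. All 23 listed of 24 were tested. Both IMQ+VEH libraries were under IMQ for 20 of them, against 35% of all genes, and 5 fell, against 0.325%. The median log2 fold change over the list was -1.16. The 5 that fell, Sprr2e, Sprr2f, Sprr2h, Sprr2i and Sprr2k, named after their values were seen, encode small proline-rich proteins of the cornified envelope and are themselves near copies of each other. The 6 defining markers summed to 56029 CPM in IMQ, 42506 and 52687 in IMQ+VEH and 48240 in IMQ+IDMF. Called by edgeR were 0 of these 6, also at an unadjusted p under 0.05, and their median log2 fold change was -0.27. Krt1 and Krt10, keratins of the suprabasal layers, had -0.18 and 0.03, and Krt14, of the basal layer, had -1.10 (edgeR adjusted p = 0.801).

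Against IMQ+VEH, the keratinocyte list in IMQ+IDMF had a median log2 fold change of -0.05, with 7 of 23 below both libraries, near the 27.5% of all genes. The hair follicle list differed most of the marker lists, with a median of -5.94 in IMQ+VEH against IMQ and 2.25 in IMQ+IDMF against IMQ+VEH, so their order was not that of the members. The part of cell composition in the member values was not tested.

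**Figure D4:**
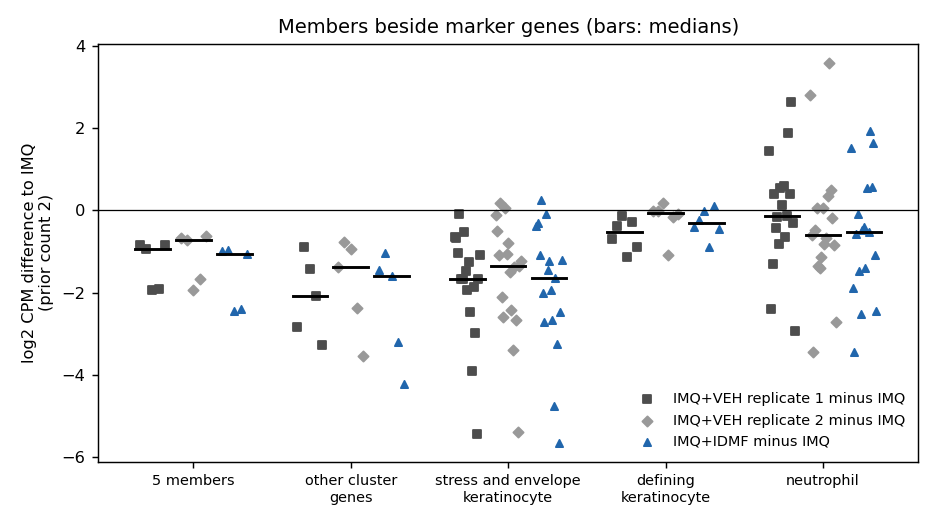
Log2 CPM difference from the IMQ library (vertical axis) for the 3 other libraries, 1 point per tested gene, in the 5 members, the other cluster genes, the keratinocyte markers (the 6 defining ones apart) and the neutrophil markers, with black bars at the medians. All points of the members and the other cluster genes lie below 0, while the neutrophil markers spread to both sides.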

How the data were processed

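For each library the authors deposited a table of gene symbols with a raw read count and an FPKM value per gene, per the file headers. HTSeq, Cufflinks and TopHat2 are named, with builds mm10 and GRCm38, per the submitters' processing notes. Not given in the sources used here are versions, strand setting, annotation and the treatment of reads that match several genes. Groups were taken from the sample labels. The members, gene lists and tests were chosen with earlier results of these data known.

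Counts were fitted in R 4.3.3 with edgeR 4.0.16 (filterByExpr with a minimum count of 10, TMM, 1 mean per group, two-sided quasi-likelihood F test). This tested 15068 genes, with Benjamini-Hochberg adjustment over all of them at 0.05. The IMQ+VEH pair alone gives a spread (1 residual degree of freedom, 11.2 prior), and the single libraries are assumed to vary like it. Differences between single libraries are in log2 CPM with a prior count of 2. The fit was tested on simulated data. In IMQ+IDMF against IMQ+VEH, 7 of 100 genes changed 2-fold and 71 of 100 changed 4-fold were called, with 7 false calls. In IMQ+VEH against IMQ these were 11 and 86 of 100, with 3 false calls. Most 2-fold changes were thus missed. Alternatives used DESeq2 1.42.0, limma 3.58.1 on log2 of the deposited FPKM plus 1 or 0.1, other scalings and filters. Depth was 21167149 to 26639628 counts per library.

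Coding sequences and shared 50-base windows came from GENCODE M21 transcripts, promoters from RefSeq. Named genes were the 5 members, tested relatives and proteases, defining markers, and the 3 genes nearest in pattern to each member with a mean log2 CPM of at least 1, leaving out predicted names.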

Additional observations from a re-analysis of the deposited data

How the results depend on the processing

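No paired analysis was possible because only the IMQ+VEH group has more than 1 library. All 60 values for the members in IMQ+IDMF against IMQ+VEH and all 55 in IMQ+VEH against IMQ were negative, over the alternatives run and each IMQ+VEH library left out. The 60 include a fit of IMQ+IDMF against IMQ and IMQ+VEH as 1 group of 3, which is another contrast and gave -1.46 for Stfa2 and -1.48 for Stfa2l1 (edgeR adjusted p = 1 for each). Without one IMQ+VEH library or the other no residual degree of freedom remains, so these are sizes with no test. In IMQ+VEH against IMQ, the count of members called, 1 in the fit described, was 2 with DESeq2 size factors, with no filter on low counts, with DESeq2 and with limma on log2(FPKM + 0.1), where Stfa2l1 passed beside Stfa2. It was 0 with limma on log2(FPKM + 1) without a filter, where Stfa2 had an adjusted p of 0.809. With limma on log2(FPKM + 1) and its filter Stfa2 had 0.0604 and Stfa2l1 0.0253. Over all genes, 100 were called (51 higher, 49 lower), 424 with no filter (310 higher, 114 lower), 202 with DESeq2, 58 with limma on log2(FPKM + 1) and 0 without its filter. The split was 75 higher and 56 lower with DESeq2 size factors, and 70 and 50 at a mean count of at least 50. In IMQ+IDMF against IMQ+VEH, 0 genes were called and 16 with no filter on low counts, none of them a member. The mean log2 CPM difference of Stfa1, Stfa2 and Stfa3 in IMQ+VEH against IMQ was -1.17, and -0.79 when their counts were summed. For Stfa2l1 and BC100530 it was -1.28, and -0.76 summed, and in IMQ+IDMF against IMQ+VEH -0.42, and -0.24 summed, since the abundant gene sets the sum. The cause of the other shifts was not tested. Total-count scaling moved the median of all genes to 0.07. With 1 IMQ and 1 IMQ+IDMF library, animal and treatment cannot be told apart.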
